A study of Homo sapiens with 8 samples.

Results

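The anaphase-promoting complex (APC/C), cohesin and condensin were represented in the knockout screen by 37 genes, each targeted by 6 single guide RNAs (sgRNAs), 3 from part A and 3 from part B of the human GeCKOv2 library. Members were all guides whose target gene was 1 of these 37, which gave 222 of 119461 guides. The cells were MB157R, a triple-negative breast cancer line that had become resistant to gamma-secretase inhibition and that expressed Cas9 in all groups. In the screen, 3 cultures were kept until day 14 with 10 µM of LY3039478, a gamma-secretase inhibitor (GSI), 3 were kept as long with the vehicle DMSO, and 2 aliquots (T0) were taken from the same transduced and combined cells after 4 days of puromycin. Each library counted guides in genomic DNA, so a value is the share of cells that carried a guide and not the expression of its target. All 8 libraries came from 1 transduced pool of 1 cell line with a coverage of at least 200-fold, and the p-values therefore measure the spread between cultures and aliquots of that pool.

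The APC/C is a ubiquitin ligase that marks securin and mitotic cyclins for destruction, which lets cells enter anaphase and leave mitosis. Cohesin is a ring of SMC proteins that holds sister chromatids together until separase cuts its kleisin subunit, and it also shapes chromatin loops in interphase. Condensin is a related ring that compacts chromosomes for mitosis. Most core subunits of the 3 machines are known as genes that dividing human cells need.

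Library totals lay between 12.1 M and 18.2 M reads, with a median of 66 to 112 reads per guide. A single guide against VPS33B took 38.8% of the reads in GSI replicate 1 and at most 1.52% in any other library. Counts were therefore scaled with median-ratio size factors, and all values below are these normalized counts. Of the 222 member guides, 207 had a mean raw count of at least 10 and were tested, and 15 fell under that limit. The T0 aliquots differed strongly from each other. Of the member guides, 85 (38.3%) differed over 4-fold between both aliquots, against 33.6% of all gene-targeting guides, and 39 (17.6%) had no read in at least 1 aliquot, against 14.4%. Over the member guides the rank correlation (Spearman) of normalized counts was 0.375 between the T0 aliquots, 0.779 to 0.805 between GSI cultures and 0.746 to 0.788 between DMSO cultures, as a description over guides of the same libraries.

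Guides against the 3 machines had, as a list, a median below T0 at day 14 in both arms, but for GSI this did not hold without T0 replicate 1, and no member gene passed the test across all genes. Over all 222 guides, tested or not, the median log2 ratio of mean normalized counts was -0.38 for GSI over T0 and -0.41 for DMSO over T0. The same median over all 111627 gene-targeting guides was -0.01 for GSI and 0.00071 for DMSO. Non-targeting controls had medians of 0.18 for GSI and 0.25 for DMSO, and guides against olfactory receptors, which breast cells do not need, had medians of 0.10 and 0.09. Both arms were set against the same T0 aliquots, so their values are not independent. Taken library by library and relative to the mean of the T0 aliquots, the median log2 level of the member guides was -0.37, -0.46 and -0.51 in the GSI cultures, -0.59, -0.48 and -0.62 in the DMSO cultures, and 0.07 and -0.07 in the T0 aliquots. All 6 day 14 libraries lay below both aliquots. Without T0 replicate 1, the median of the members was 0.17 for GSI, next to 0.19 over all gene-targeting guides, and -0.03 for DMSO, next to 0.21. Without T0 replicate 2, it was -0.28 for GSI, next to 0.08, and -0.37 for DMSO, next to 0.10.

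A count of 0 was also more frequent among member guides. No read was found for 3, 18 and 10 of the 222 member guides in the GSI cultures (1.35%, 8.11% and 4.50%), for 21, 31 and 16 in the DMSO cultures (9.46%, 14.0% and 7.21%), and for 16 and 35 in the T0 aliquots (7.21% and 15.8%). Over all gene-targeting guides these shares were 0.745%, 2.30% and 1.30% in the GSI cultures, 2.85%, 3.85% and 2.55% in the DMSO cultures, and 5.05% and 11.5% in the T0 aliquots. The share of member guides without reads was thus above that of all guides in each of the 8 libraries, T0 included.

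Guide by guide, 44 of the 222 member guides (19.8%) were lower in every GSI culture than in both T0 aliquots, where 13.5% of all gene-targeting guides were, and 31 (14.0%) were higher in every one, where 15.7% of all were. In the DMSO cultures 48 member guides (21.6%) were lower than in both aliquots, against 13.0% of all gene-targeting guides, and 24 (10.8%) were higher, against 14.8%. No guide in the library, member or not, passed edgeR's quasi-likelihood test at an adjusted p under 0.05 for GSI over T0 or for DMSO over T0 (0% called in each). At an unadjusted p under 0.05, 23 member guides were lower and 5 higher for GSI over T0, where 3.99% of all tested guides were lower and 4.72% higher. For DMSO over T0, 20 member guides were lower and 8 higher, where 3.55% of all were lower and 4.19% higher. DESeq2's Wald test on the same counts called 14 member guides lower and 6 higher for GSI over T0 (9.66% of those tested, against 6.78% of all guides), and 15 lower and 8 higher for DMSO over T0 (11.1% against 5.73%).

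At the level of genes, guide p-values were combined by robust rank aggregation (RRA) and adjusted by the Benjamini-Hochberg method over 18570 genes. The RRA p is exact for the ranks of a gene's guides among all tested guides, given edgeR's p-values, and not over samples. None of the 37 members passed an adjusted p under 0.05 for GSI over T0, where no gene of the library did (0% called), or for DMSO over T0, where 6 genes did (0.0323%). At an unadjusted p under 0.05 on the low side, 7 members were found for GSI over T0, where 5.88% of all genes were, and 10 for DMSO over T0, where 6.29% were. On the high side there was 1 member for each arm, against 5.39% of all genes for GSI and 5.30% for DMSO. For GSI these were ANAPC2, SMC2, ANAPC5, ANAPC4, ANAPC10, CDC16 and UBE2C, and for DMSO they were ANAPC5, CDC16, ANAPC4, SMC2, CDC23, ANAPC2, ESPL1, NCAPG, PTTG1 and ANAPC10. With 1 GSI culture left out, the low-side count for GSI was 6 to 10, against 5.83% to 5.91% of all genes. Summed over the 6 guides of a gene, the normalized counts of 13 members were lower in every GSI culture than in both aliquots, where 19.3% of all genes were, and those of 12 members were lower in every DMSO culture, where 17.2% were. Of these, 11 members were lower in both arms: ANAPC2, ANAPC5, ANAPC10, CDC16, CDC23, UBE2C, SMC1A, RAD21, ESPL1, PTTG1 and SMC2. The share of all genes lower in both arms was not counted. Both arms were set against the same aliquots, so this overlap is no separate result about the members. One member was higher in every library of an arm, PDS5B in the GSI cultures (11.5% of all genes) and UBE2S in the DMSO cultures (12.4%).

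Among the 8 groups of subunits, guides against the SMC2 and SMC4 subunits of condensin had the lowest medians (12 guides). These were -0.99 for GSI over T0 and -1.19 for DMSO over T0. Over tested guides alone, the median log2 fold change for DMSO was -1.29 for SMC2 but 0.18 for SMC4. Guides against the 13 core subunits of the APC/C followed for GSI, with -0.60, and had -0.45 for DMSO (78 guides). The cohesin ring with its STAG subunits had -0.24 for GSI and -0.58 for DMSO (30 guides), and separase with securin had -0.32 and -0.53 (12 guides). Condensin I had -0.27 and -0.38, and condensin II had -0.12 and -0.11 (18 guides each). The coactivators, the inhibitor and the E2 enzymes of the APC/C had -0.17 and -0.02 (30 guides), and the cohesin loader with the PDS5 proteins had -0.07 and 0.18 (24 guides). These medians rest on 2 to 13 genes each and were not tested against each other.

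Of the 13 core subunits of the APC/C, ANAPC2, ANAPC5 and ANAPC4 had the lowest low-side p for GSI over T0, and ANAPC5, CDC16 and ANAPC4 had the lowest for DMSO over T0. ANAPC2, the cullin-like subunit of the catalytic centre (ENSG00000176248, chromosome 9, 137174784 to 137188560, minus strand, GRCh38), had summed normalized counts of 239.7, 288 and 318 in the GSI cultures, 305, 255 and 325 in the DMSO cultures, and 821 and 752 in the T0 aliquots. The day 14 means were 0.359 (GSI) and 0.375 (DMSO) times the T0 mean, and none of the 6 libraries overlapped with the aliquots. Its guides had a median log2 fold change of -2.19 ± 1.97 for GSI (SD over guides; low side, exact RRA p = 0.00159, adjusted p = 0.376). In DMSO cultures ANAPC2 had -2.46 ± 2.07 (exact RRA p = 0.00431, adjusted p = 0.369), with all 6 guides negative in both arms. One of these guides, HGLibA_01880, rested on a single aliquot, with 1.35, 0 and 0 in the GSI cultures, 1.10, 0 and 0 in the DMSO cultures, and 65.3 and 0 in the T0 aliquots. ANAPC11, the RING-finger subunit that works beside ANAPC2, had totals of 890.2, 1004 and 848 in the GSI cultures, 812, 665 and 776 in the DMSO cultures, and 1340.3 and 642 in the T0 aliquots. Its day 14 values lay between those of the aliquots, and no side of the RRA passed an unadjusted p under 0.05 against T0.

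ANAPC5, a platform subunit that links the catalytic part to the arc of scaffold proteins (ENSG00000089053, chromosome 12, 121308245 to 121399896, minus strand), had totals of 575, 565 and 463 in the GSI cultures, 419.7, 633 and 464 in the DMSO cultures, and 1294 and 1029 in the T0 aliquots. Each day 14 library lay below both aliquots. The median log2 fold change was -0.98 ± 1.90 for GSI (exact RRA p = 0.00451, adjusted p = 0.487). In DMSO cultures ANAPC5 had -1.40 ± 1.84 (exact RRA p = 0.000341, adjusted p = 0.135), the lowest adjusted p of any member against T0. Its guide HGLibA_01887 had 63.3, 29.4 and 16.7 in the GSI cultures, 12.1, 8.13 and 22.8 in the DMSO cultures, and 177 and 218 in the T0 aliquots. Guide HGLibB_01884 had 206, 221 and 174 in the GSI cultures, 222, 339 and 223 in the DMSO cultures, and 294 and 273 in the T0 aliquots. The first was lower in every day 14 library, and the DMSO counts of the second overlapped with T0. ANAPC4, another platform subunit (ENSG00000053900, chromosome 4, 25377263 to 25418498, plus strand), had totals of 549, 564 and 2217 in the GSI cultures, 474, 688 and 437 in the DMSO cultures, and 757 and 1293 in the T0 aliquots. The GSI total of replicate 3 stood apart through a single guide, HGLibB_01882, which had 306, 203 and 1954 in the GSI cultures, 183, 431 and 249 in the DMSO cultures, and 126 and 596 in the T0 aliquots. In contrast, HGLibB_01880 was low in every day 14 library, with 4.04, 21.5 and 9.40 in the GSI cultures, 11, 23.5 and 2.28 in the DMSO cultures, and 90.4 and 267 in the T0 aliquots. The median over guides was -1.83 ± 2.03 for GSI (exact RRA p = 0.00839, adjusted p = 0.556). In DMSO cultures ANAPC4 had -2.25 ± 1.64 (exact RRA p = 0.000788, adjusted p = 0.208). ANAPC1, the largest scaffold subunit, had totals of 477, 547 and 456 in the GSI cultures, 732, 547 and 428 in the DMSO cultures, and 477 and 921 in the T0 aliquots. These overlapped in both arms, with exact low-side p values of 0.0952 and 0.135.

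The arc of the APC/C is built from proteins with tetratricopeptide repeats, which bind the coactivators. Among them, CDC16 (ENSG00000130177, chromosome 13, 114234887 to 114272723, plus strand) had totals of 675, 873 and 777 in the GSI cultures, 696, 860.4 and 797 in the DMSO cultures, and 1457 and 1242 in the T0 aliquots. Both arms were lower than T0 in every library. Its median log2 fold change was -0.80 ± 1.40 for GSI (exact RRA p = 0.0445, adjusted p = 0.828). In DMSO cultures CDC16 had -1.58 ± 3.58 (exact RRA p = 0.000393, adjusted p = 0.140). One guide, HGLibB_08507, was nearly absent at day 14 and had 21.5, 34.2 and 0 in the GSI cultures, 0, 0 and 1.14 in the DMSO cultures, and 249 and 238 in the T0 aliquots, with an edgeR adjusted p of 0.488 for DMSO over T0. The most abundant guide, HGLibB_08508, had 249, 505 and 318 in the GSI cultures, 248, 381 and 322 in the DMSO cultures, and 422 and 359 in the T0 aliquots, and its day 14 values spread around those of T0.

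CDC23 (ENSG00000094880, chromosome 5, 138187650 to 138213343, minus strand) had totals of 222, 237 and 283 in the GSI cultures, 278, 240.2 and 227 in the DMSO cultures, and 567 and 455 in the T0 aliquots, with both arms below T0 in every library. Here the median log2 fold change was -1.13 ± 2.17 for GSI (exact RRA p = 0.126, adjusted p = 0.956). In DMSO cultures CDC23 had -0.05 ± 3.95 (exact RRA p = 0.00401, adjusted p = 0.353). The low p for DMSO came with a median near 0 and with 1 guide, HGLibB_08517, that was nearly absent at day 14, with 8.08, 42.9 and 1.04 in the GSI cultures, 0, 0 and 2.28 in the DMSO cultures, and 158 and 294 in the T0 aliquots. CDC27 had totals of 497, 359 and 410.4 in the GSI cultures, 572, 809 and 479.5 in the DMSO cultures, and 713 and 363 in the T0 aliquots. ANAPC7 had 523, 756 and 417 in the GSI cultures, 441, 827 and 675 in the DMSO cultures, and 979.7 and 554 in the T0 aliquots. Both overlapped with T0 in both arms, and neither had an unadjusted p under 0.05 on any side. Of the CDC27 guides, HGLibA_08538 had 91.6, 5.56 and 5.22 in the GSI cultures, 38.4, 49.7 and 3.42 in the DMSO cultures, and 207 and 233 in the T0 aliquots, which was lower at day 14 in every library. The CDC27 guides were split, with 2 lower and 1 higher than both aliquots in every GSI culture. In every DMSO culture 2 were lower and 2 higher.

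ANAPC10, a substrate receptor of the APC/C (ENSG00000164162, chromosome 4, 144831908 to 145098541, minus strand), had totals of 408, 583 and 362 in the GSI cultures, 489, 524 and 416 in the DMSO cultures, and 681 and 637 in the T0 aliquots. The day 14 libraries were all below the aliquots. Its guides ran in opposite directions: HGLibB_01863 had 4.04, 0 and 0 in the GSI cultures, 0, 0 and 2.28 in the DMSO cultures, and 94.5 and 202 in the T0 aliquots, while HGLibA_01866 had 87.5, 69.9 and 80.4 in the GSI cultures, 209, 175 and 41.0 in the DMSO cultures, and 21.8 and 19.0 in the T0 aliquots. The first was almost gone at day 14 and the second was higher than T0 in every day 14 library. The median log2 fold change was -0.46 ± 3.17 for GSI (exact RRA p = 0.0267, adjusted p = 0.754). In DMSO cultures ANAPC10 had -0.54 ± 3.59 (exact RRA p = 0.0221, adjusted p = 0.620). The small stabilizing subunits CDC26, ANAPC16 and ANAPC13 overlapped with T0 in their totals in both arms. CDC26 had median log2 fold changes of -0.08 for GSI and -0.43 for DMSO, and ANAPC16 had -0.13 and -0.48. ANAPC13 was the one member with an unadjusted p under 0.05 on the high side for DMSO over T0 (exact RRA p = 0.0291, adjusted p = 0.913), with totals of 630.3, 645 and 544 in the GSI cultures, 928, 1020.2 and 656 in the DMSO cultures, and 708 and 437 in the T0 aliquots.

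The activity of the APC/C is switched on by CDC20 in metaphase and by FZR1 (CDH1) from late mitosis on, is held back by FBXO5 (EMI1), and works through the ubiquitin-conjugating enzymes UBE2C, which starts chains, and UBE2S, which extends them. UBE2C (ENSG00000175063, chromosome 20, 45812576 to 45816957, plus strand) had totals of 407, 358 and 533 in the GSI cultures, 331, 391 and 399.8 in the DMSO cultures, and 567 and 652 in the T0 aliquots, lower than T0 in all 6 day 14 libraries. Its median log2 fold change was -0.30 ± 2.20 for GSI (exact RRA p = 0.0463, adjusted p = 0.837). In DMSO cultures UBE2C had -0.73 ± 2.22 (exact RRA p = 0.0527, adjusted p = 0.807), and without T0 replicate 1 the GSI median was 0.34, of opposite sign. Of its guides, HGLibA_52579 had 26.9, 20.7 and 18.8 in the GSI cultures, 16.4, 20.8 and 6.83 in the DMSO cultures, and 78.6 and 358 in the T0 aliquots, so that every day 14 value was below both aliquots. The UBE2C guides were split, with 2 lower and 1 higher than both aliquots in every GSI culture. In every DMSO culture 2 were lower and 2 higher. UBE2S ran the other way, with totals of 733, 867 and 655 in the GSI cultures, 805, 853 and 923 in the DMSO cultures, and 296 and 752 in the T0 aliquots. The DMSO cultures were higher than both aliquots, and its aliquots differed by over 2-fold from each other. CDC20, which is required for anaphase, was thinly covered, with totals of 124, 126 and 141 in the GSI cultures, 187, 105 and 93.4 in the DMSO cultures, and 125 and 229 in the T0 aliquots. Its day 14 values overlapped with T0, with exact low-side p values of 0.669 for GSI and 0.243 for DMSO. FBXO5 had 512, 540.4 and 648 in the GSI cultures, 474, 636 and 491 in the DMSO cultures, and 584 and 791 in the T0 aliquots. FZR1 had 452, 514 and 425 in the GSI cultures, 572, 805 and 749 in the DMSO cultures, and 602 and 451 in the T0 aliquots. Neither had an unadjusted p under 0.05 against T0.

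In the cohesin ring, RAD21, the kleisin subunit that separase cuts (ENSG00000164754, chromosome 8, 116845934 to 116874776, minus strand), had totals of 259, 343 and 156 in the GSI cultures, 288, 317 and 182 in the DMSO cultures, and 663 and 367 in the T0 aliquots. Every day 14 library was lower than both aliquots, although the aliquots themselves differed widely. The median log2 fold change of its 5 tested guides was -1.53 ± 1.71 for GSI (exact RRA p = 0.0684, adjusted p = 0.881). In DMSO cultures RAD21 had -0.97 ± 3.46 (exact RRA p = 0.0509, adjusted p = 0.797). SMC1A, 1 of the 2 SMC arms of the ring, had totals of 516, 553 and 519 in the GSI cultures, 491, 468 and 579 in the DMSO cultures, and 648 and 689.9 in the T0 aliquots, a narrow gap with no overlap. Its exact RRA p on the low side was 0.107 for GSI and 0.0542 for DMSO. SMC3, the partner of SMC1A, had 201, 407 and 459 in the GSI cultures, 390.1, 367 and 313 in the DMSO cultures, and 342 and 562 in the T0 aliquots, which overlapped. The STAG subunits replace each other in the ring. STAG1 had 1313, 679 and 898 in the GSI cultures, 1193, 1074 and 744 in the DMSO cultures, and 1226 and 521 in the T0 aliquots. STAG2 had 694, 717 and 732 in the GSI cultures, 748, 692 and 571 in the DMSO cultures, and 1082 and 527 in the T0 aliquots. Both overlapped with T0 in both arms, with median log2 fold changes for GSI of 0.26 (STAG1) and -0.13 (STAG2), and for DMSO of 0.30 and -0.74.

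Among the proteins that load and hold cohesin, PDS5A and PDS5B had medians of opposite sign in both arms. PDS5A (ENSG00000121892, chromosome 4, 39822863 to 39977956, minus strand) had totals of 387, 436 and 497 in the GSI cultures, 313, 535 and 428 in the DMSO cultures, and 684 and 503 in the T0 aliquots, lower than T0 in every GSI culture. The median log2 fold change was -0.56 ± 1.20 for GSI (exact RRA p = 0.0861, adjusted p = 0.901). In DMSO cultures PDS5A had -0.61 ± 0.79 (exact RRA p = 0.292, adjusted p = 1). Without T0 replicate 1 both medians turned positive, to 0.75 for GSI and 0.57 for DMSO. PDS5B had totals of 431, 518 and 385 in the GSI cultures, 374, 209 and 568 in the DMSO cultures, and 313 and 263 in the T0 aliquots, higher than both aliquots in every GSI culture. It was the one member with an unadjusted p under 0.05 on the high side for GSI over T0 (median 1.27 ± 3.02; exact RRA p = 0.0124, adjusted p = 0.854), and the median for DMSO was 1.18 ± 2.78 (exact RRA p = 0.25, adjusted p = 0.988). Its aliquots held few reads, as in HGLibA_35947 with 24.2, 13.5 and 27.2 in the GSI cultures, 6.58, 9.93 and 18.2 in the DMSO cultures, and 0 and 0 in the T0 aliquots. The high-side count of members was 0 without GSI replicate 1 and without GSI replicate 2, against 5.3% and 5.1% of all genes. It was 2 without GSI replicate 3, against 5.25%. Of the 6 PDS5B guides, 4 were higher than both aliquots in every GSI culture, where 15.7% of all gene-targeting guides were. In every DMSO culture 1 was, against 14.8%. The loader proteins NIPBL and MAU2 overlapped with T0 in both arms. NIPBL had totals of 400.0, 319 and 270.5 in the GSI cultures, 290.4, 449 and 312 in the DMSO cultures, and 381 and 533 in the T0 aliquots. MAU2 had 318, 294 and 239 in the GSI cultures, 415, 664 and 368 in the DMSO cultures, and 725 and 200.2 in the T0 aliquots.

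Separase and its inhibitor securin were lower than T0 in every day 14 library by their totals. ESPL1, which encodes separase (ENSG00000135476, chromosome 12, 53268299 to 53293638, plus strand), had 545, 656 and 784 in the GSI cultures, 630.1, 535 and 551 in the DMSO cultures, and 894 and 818 in the T0 aliquots. Its median log2 fold change was -1.01 ± 1.04 for GSI (exact RRA p = 0.117, adjusted p = 0.952). In DMSO cultures ESPL1 had -0.75 ± 1.69 (exact RRA p = 0.0111, adjusted p = 0.507). Guide HGLibB_15550 had 45.8, 117 and 113 in the GSI cultures, 98.6, 35.2 and 45.6 in the DMSO cultures, and 237 and 195 in the T0 aliquots, so that no day 14 value reached T0. PTTG1, which encodes securin, had 432, 648 and 704 in the GSI cultures, 398, 500.2 and 374 in the DMSO cultures, and 962 and 709 in the T0 aliquots. With 4 tested guides, its median was -0.32 ± 1.52 for GSI (exact RRA p = 0.193, adjusted p = 0.980). In DMSO cultures PTTG1 had -1.05 ± 1.83 (exact RRA p = 0.0169, adjusted p = 0.582). Of the 12 guides against both genes, 3 were lower in every GSI culture than in both aliquots and 5 in every DMSO culture, where 13.5% and 13.0% of all gene-targeting guides were.

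SMC2, 1 of the SMC pair that both condensins share (ENSG00000136824, chromosome 9, 104094260 to 104141419, plus strand), had the lowest low-side p of the condensin genes in both arms, with totals of 482, 281 and 497 in the GSI cultures, 453, 409 and 248 in the DMSO cultures, and 833 and 1158 in the T0 aliquots. The 6 day 14 totals were 0.422 times (GSI) and 0.372 times (DMSO) the T0 mean and did not overlap with it. All 5 tested guides were negative in both arms, with a median of -1.10 ± 0.69 for GSI (exact RRA p = 0.00382, adjusted p = 0.469). In DMSO cultures SMC2 had -1.29 ± 1.20 (exact RRA p = 0.00142, adjusted p = 0.257). Its most abundant guide, HGLibB_45592, had close T0 aliquots, with 195, 188 and 282 in the GSI cultures, 274, 193 and 190.2 in the DMSO cultures, and 469 and 483 in the T0 aliquots. Its partner SMC4 had 357, 292 and 252 in the GSI cultures, 301, 549 and 364 in the DMSO cultures, and 524 and 436 in the T0 aliquots, lower than T0 in every GSI culture but not in every DMSO culture. The SMC4 median log2 fold change was -0.71 ± 2.30 for GSI and 0.18 ± 2.43 for DMSO. Of 5 tested guides, 4 were negative for GSI and 2 for DMSO. Its exact low-side p was 0.0771 for GSI and 0.311 for DMSO.

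For condensin I, the totals of all 3 genes overlapped with T0 in both arms. The median log2 fold change over guides was negative for all 3 in both arms, though near 0 for NCAPH with GSI. For NCAPH it was -0.02 for GSI and -0.42 for DMSO, and for NCAPD2 it was -0.69 and -0.34. NCAPG (ENSG00000109805, chromosome 4, 17810979 to 17844865, plus strand), a HEAT-repeat subunit, had totals of 482, 536 and 442 in the GSI cultures, 392, 600.4 and 556 in the DMSO cultures, and 535 and 676 in the T0 aliquots. Its median log2 fold change was -0.43 ± 1.54 for GSI (exact RRA p = 0.145, adjusted p = 0.964). In DMSO cultures NCAPG had -0.74 ± 2.60 (exact RRA p = 0.0111, adjusted p = 0.507), and without T0 replicate 2 both medians turned positive, to 0.21 and 0.10. The kleisin NCAPH had 657, 735 and 831 in the GSI cultures, 523, 537 and 502 in the DMSO cultures, and 392 and 995 in the T0 aliquots. NCAPD2, another HEAT-repeat subunit, had 419, 602 and 683 in the GSI cultures, 665, 627 and 952 in the DMSO cultures, and 691 and 414 in the T0 aliquots. For condensin II, which works inside the nucleus before the envelope breaks down, NCAPD3 (ENSG00000151503, chromosome 11, 134150113 to 134225504, minus strand) was the most even member, with totals of 816, 850.4 and 775 in the GSI cultures, 835, 802 and 787 in the DMSO cultures, and 822 and 866 in the T0 aliquots. Its 8 values stayed within a narrow band, and its median was 0.12 ± 0.73 for GSI and 0.42 ± 1.17 for DMSO (low side, exact RRA p = 0.333, adjusted p = 1), although its single guides spread more widely. NCAPG2 (ENSG00000146918, chromosome 7, 158631169 to 158704804, minus strand) had 508, 393 and 290.3 in the GSI cultures, 447, 541 and 486 in the DMSO cultures, and 622 and 339.8 in the T0 aliquots. The median for GSI was -0.53 ± 1.03 (exact RRA p = 0.471, adjusted p = 1) and became 0.59 without T0 replicate 1. NCAPH2 had 335, 327 and 527 in the GSI cultures, 255, 412 and 461 in the DMSO cultures, and 387 and 626 in the T0 aliquots. Neither NCAPG2 nor NCAPH2 passed an unadjusted p under 0.05 against T0.

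The comparison of the GSI with the DMSO cultures addressed whether cells with these knockouts were lost or gained under the inhibitor. Its fit left out the T0 aliquots, but the count filter and the size factors were taken over all 8 libraries. Over the 222 member guides the median log2 ratio was 0.08, against -0.02 over all gene-targeting guides, and it became -0.0012 without DMSO replicate 3 and 0.0017 without GSI replicate 3. Of the member guides, 13 (5.86%) were lower in every GSI culture than in every DMSO culture, against 4.31% of all, and 9 (4.05%) were higher, against 4.73%. No guide and no gene in the library passed an adjusted p under 0.05 with edgeR and RRA (0% called). DESeq2 called no guide either. At an unadjusted p under 0.05, 6 of the 207 tested member guides were lower (2.90%) and 7 higher (3.38%) with edgeR, where 1.46% and 1.55% of all tested guides were. By RRA 3 members had an unadjusted p under 0.05 on the low side (5.13% of all genes) and 2 on the high side (5.0% of all genes). The low-side count was 1 without DMSO replicate 2 and 0 without GSI replicate 3. The high-side count was 1 without GSI replicate 3 and 4 without GSI replicate 1, DMSO replicate 2 or DMSO replicate 3. In these runs the shares of all genes were 5.08% to 5.40%.

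The lowest p on the low side was that of ANAPC13 (ENSG00000129055, chromosome 3, 134477706 to 134486716, minus strand), with totals of 630.3, 645 and 544 in the GSI cultures and 928, 1020.2 and 656 in the DMSO cultures, with no overlap (5.81% of all genes were lower in this way). Its median log2 fold change was -0.32 ± 0.67 (exact RRA p = 0.0101, adjusted p = 0.948). FZR1 (ENSG00000105325, chromosome 19, 3506311 to 3538334, plus strand) had 452, 514 and 425 in the GSI cultures and 572, 805 and 749 in the DMSO cultures, again without overlap, and all 6 of its guides were negative, with a median of -0.56 ± 0.50 (exact RRA p = 0.0256, adjusted p = 0.958). Its guide with the lowest p, HGLibB_18266, had 35.0, 70.7 and 56.4 in the GSI cultures, against 111, 189.6 and 190.2 in the DMSO cultures (edgeR adjusted p = 1). MAU2 (ENSG00000129933, chromosome 19, 19320829 to 19358754, plus strand) had 318, 294 and 239 in the GSI cultures and 415, 664 and 368 in the DMSO cultures, and a median of -0.91 ± 0.53 (exact RRA p = 0.0304, adjusted p = 0.959). These were the members whose totals were lower in every GSI culture.

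On the high side, CDC16 came first, with a median log2 fold change of 0.87 ± 2.21 (exact RRA p = 0.00631, adjusted p = 0.805). Its totals overlapped, with 675, 873 and 777 in the GSI cultures and 696, 860.4 and 797 in the DMSO cultures. Of its 6 guides, 5 had a positive log2 fold change, and 1 was higher in every GSI culture than in every DMSO culture. That guide, HGLibA_08514, had few reads at day 14, with 37.7, 22.3 and 36.5 in the GSI cultures, against 6.58, 2.71 and 1.14 in the DMSO cultures. NCAPH (ENSG00000121152, chromosome 2, 96335766 to 96377091, plus strand) had 657, 735 and 831 in the GSI cultures and 523, 537 and 502 in the DMSO cultures, without overlap (3.75% of all genes were higher in this way), and a median of 0.17 ± 0.69 (exact RRA p = 0.0157, adjusted p = 0.950). Its guide with the lowest p, HGLibB_31234, had 199, 281 and 341 in the GSI cultures, against 99.7, 100.2 and 124 in the DMSO cultures (edgeR adjusted p = 1). ANAPC4 had the next lowest p (median 0.12 ± 0.72; exact RRA p = 0.0846, adjusted p = 0.965), where GSI replicate 3 held the single abundant guide described above, and its median was -0.07 without DMSO replicate 3. ANAPC11 was the other member whose total was higher in every GSI culture, with 890.2, 1004 and 848 in the GSI cultures and 812, 665 and 776 in the DMSO cultures and exact RRA p = 0.167, adjusted p = 0.982.

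For 33 of the 37 members the median log2 fold change over tested guides was negative for GSI over T0, and for 27 of 37 it was for DMSO over T0, against 9521 and 9210 of all 18570 genes. The SD over the guides of a member reached 3.45 on the log2 scale for GSI (ANAPC7) and 3.95 for DMSO (CDC23). The parts of the library also differed. The median log2 ratio of the 111 member guides from part B was -0.50 for GSI and -0.51 for DMSO, and that of the 111 from part A was -0.27 and -0.15. Over all gene-targeting guides, part B had -0.01 and 0.05, and part A had -0.01 and -0.05.

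Genes around these machines were looked at in 5 further lists with 34 genes in the library. None passed an adjusted p under 0.05 in any comparison, and the numbers below are at an unadjusted p under 0.05. At that level, 5.88% of all genes were low and 5.39% high for GSI over T0. These shares were 6.29% and 5.30% for DMSO over T0, and 5.13% and 5.0% for GSI over DMSO. Of 9 checkpoint proteins, APC/C substrates and further subunits, 1 was high for GSI over T0, 1 was low and 1 high for DMSO over T0, and 2 were high for GSI over DMSO. The low one was MAD2L1, the spindle checkpoint protein that inhibits CDC20, with a median log2 fold change of -1.80 ± 3.92 for DMSO over T0 (exact RRA p = 0.0233, adjusted p = 0.628) and 1.39 ± 2.74 for GSI over DMSO (exact RRA p = 0.00650, adjusted p = 0.805). The MAD2L1 totals overlapped, with 356, 462 and 229 in the GSI cultures and 250, 339 and 353 in the DMSO cultures. CCNA2, cyclin A and an APC/C substrate, had 2.0 ± 1.54 for GSI over DMSO (exact RRA p = 0.00250, adjusted p = 0.724), and CCNB1, cyclin B, had 1.07 ± 1.06 for GSI over T0 (exact RRA p = 0.0135, adjusted p = 0.854). CCNA2 was thinly covered, with totals of 217, 203 and 199 in the GSI cultures and 126, 54.2 and 45.6 in the DMSO cultures. Of 9 cohesin regulators, 2 were low for GSI over T0 and 2 for DMSO over T0, where DDX11, a helicase linked to sister chromatid cohesion, was low in both arms (exact RRA p = 0.00354 for GSI and 0.00896 for DMSO). Of 5 condensin partners, 2 were low for GSI over T0, 1 was low for DMSO over T0, and 1 (AKAP8) was high for GSI over DMSO (exact RRA p = 0.0247, adjusted p = 0.965). KIF4A, a chromosome-bound kinesin, had -1.33 ± 1.0 for GSI (exact RRA p = 0.00502, adjusted p = 0.494) and -1.52 ± 1.46 for DMSO (exact RRA p = 0.0408, adjusted p = 0.756), and TOP2A, which untangles chromatids, had -0.98 ± 1.40 for GSI (exact RRA p = 0.0242, adjusted p = 0.734). No gene of 7 in the related SMC5/6 complex was below that level on either side. Of 4 meiotic cohesin subunits, which somatic cells hardly use, 1 (REC8) was high for GSI over T0 (exact RRA p = 0.0388, adjusted p = 0.915) and 1 (SMC1B) was high for GSI over DMSO (exact RRA p = 0.050, adjusted p = 0.965). As lists, the median log2 ratio against T0 was -0.30 for GSI and -0.29 for DMSO in the cohesin regulators, and -0.29 and -0.22 in the condensin partners. It was -0.47 and -0.29 in SMC5/6, -0.05 and -0.37 in the checkpoint list, and -0.20 for both arms in meiotic cohesin.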

How the data were processed

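Genomic DNA of 8 libraries was sequenced for guide abundance. Per the labels, the authors used bcl2fastq 2.19 for trimming, FastQC 0.11.5 for quality control and MAGeCK 0.5.9.2 for counting guides of both GeCKOv2 parts. The deposited raw count of each guide in each library was the value tested. A second deposited table holds each library's counts multiplied by a constant, as a normalized signal scaled by the authors, and served as an alternative scaling only.

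Counts were analysed in R 4.3.3 with the quasi-likelihood test of edgeR 4.0.16 (limma 3.58.1) and, as an alternative, DESeq2 1.42.0. Median-ratio size factors were used, and a guide was tested if its raw counts averaged at least 10 over all libraries, with only the 2 groups compared in each fit. Genes with at least 4 tested guides were tested by RRA (alpha of 0.25) separately on the low and the high side, with p-values from its exact null distribution over ranks. MAGeCK's own test was not run. Benjamini-Hochberg adjustment ran over all guides or genes, with a threshold of 0.05. For each gene, log2 fold changes of the tested guides were summarized by their median and SD. Log2 ratios of lists used all guides, tested or not, with a pseudocount of 1. Scripts were tested on simulated data. Gene positions came from GENCODE release 44 (GRCh38), where 37 of 37 members matched by symbol. Guide sequences and target positions were not used here. PCR reads are not independent molecules.

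The members, the groups of subunits and the 5 further lists were chosen with earlier results of these data known. Genes described per library were, in each group of subunits, the member with the lowest low-side p against T0 in each arm, and for GSI against DMSO the 3 members with the lowest p on each side. Other members are given for completeness of the list. GSI and DMSO cultures share replicate numbers. The deviations of same-numbered cultures correlated at 0.28, 0.064 and 0.12, and those of differently numbered cultures at -0.16 to 0.045. The numbers were not taken as pairs in the main test, and a replicate block was run as an alternative. These correlations do not decide whether the cultures were paired. Alternatives were other size factors, count filters, DESeq2, a joint fit of all libraries, a replicate block, gene sums and leaving out each library.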

Additional observations from a re-analysis of the deposited data

How the results depend on the processing

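No member gene passed an adjusted p under 0.05 in any comparison under any alternative run. The lowest adjusted p came from edgeR on gene sums, for DMSO over T0, with 0.0607 for SMC2, 0.0687 for ANAPC2 and 0.0689 for ANAPC5. That test called 22 genes of the library for GSI over T0 and 98 for DMSO over T0, where RRA called 0 and 6. DESeq2's Wald test called 20 member guides for GSI over T0 (9.66% of those tested, against 6.78% of all guides). For DMSO over T0 it called 23 (11.1% against 5.73%). In both, edgeR called 0. Leaving out 1 day 14 culture gave 0 guides called over all tested guides, members included, for GSI over T0 and for DMSO over T0. Without T0 replicate 1 these were 37 (17.9% of those tested, against 18.1% of all guides) and 17 (8.21% against 7.13%), and without T0 replicate 2 they were 14 (6.76% against 4.72%) and 0.

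With 1 day 14 culture left out, 6 to 10 members had an unadjusted low-side p under 0.05 for GSI over T0. The share of all genes was then 5.83% to 5.91%. For DMSO over T0 there were 10 to 12 members, against 6.18% to 6.31% of all genes. For GSI over DMSO there were 0 to 3, against 4.99% to 5.22%. With any 1 library left out, T0 aliquots included, member guides lower in every library numbered 51 to 99 for GSI over T0. They numbered 56 to 97 for DMSO over T0 and 19 to 31 for GSI over DMSO. The share of all gene-targeting guides was then 17.4% to 32.6%, 17.5% to 30.6% and 7.54% to 10.8%, since fewer libraries overlap less by construction.

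The median log2 ratio of the members ranged from -0.40 to 0.17 for GSI over T0, from -0.51 to -0.032 for DMSO over T0 and from -0.0012 to 0.13 for GSI over DMSO with 1 library left out. The positive GSI value was without T0 replicate 1, and the negative value for GSI over DMSO was without DMSO replicate 3. For GSI over T0 it was -0.52 with library totals, -0.58 with factors from the non-targeting controls and -0.48 with the authors' constants, a scaling chosen after seeing the data. The median of all gene-targeting guides was then -0.15, -0.21 and -0.11. For DMSO over T0 it was -0.66 with factors from the controls, where all gene-targeting guides had -0.25. For GSI over DMSO it was -0.14 with library totals, which hold the VPS33B reads, where all gene-targeting guides had -0.22.

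The sign of a few single genes turned, all far from the threshold. NCAPG had 0.56 for GSI over T0 and 0.98 for DMSO over T0 with a mean count of at least 50. On gene sums, NCAPD3 had -0.063 for DMSO over T0 and CDC16 had -0.017 for GSI over DMSO. With 1 library left out, GSI over T0 ranged from -0.66 to 0.34 for UBE2C, from -1.0 to 0.75 for PDS5A, from -0.67 to 0.21 for NCAPG and from -0.77 to 0.59 for NCAPG2. DMSO over T0 ranged from -0.91 to 0.10 for NCAPG and from -0.81 to 0.57 for PDS5A, and GSI over DMSO from -0.073 to 1.15 for ANAPC4. The causes were not tested.

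The replicate block changed no call of a member. With it, NCAPG2 had 0.52 for GSI over T0. The members at an unadjusted low-side p under 0.05 numbered 6 for GSI over T0 (5.89% of all genes). They numbered 12 for DMSO over T0 (6.18%) and 4 for GSI over DMSO (5.20%). Against T0 the block matched aliquots to cultures by number only, and their deviations correlated at -0.036 to 0.036. In deviations from the group means, each culture correlated best with the culture of the other arm that had its own number, which is a hint from the data and not from the design. Over the member guides, the rank correlation of GSI replicate 1 with DMSO replicate 1 was 0.852, above those within either arm. The spread between the T0 aliquots limits all values against T0.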
